A study of Mus musculus with 8 samples.

Results

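The cell cycle genes described here are 49 genes chosen by name: 20 that act in S phase, when DNA is copied, 28 that act in mitosis, and the G1 cyclin Ccnd1. A probe belonged to a gene when its gene name on the array was that of the gene. The genes and their division into sets were listed with earlier results of these data known. All 49 had a probe, 75 probes in all. Of the 49 genes, 40 were marked by the scanner software as well above background on 2 or more of the 8 arrays and entered the tests: 16 S phase genes, 23 mitotic genes and Ccnd1. The tests ran over 15342 genes in all that passed the same filter. On all 8 arrays, 25 of the genes were well above background: 15 S phase genes, 9 mitotic genes and Ccnd1.

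Liver RNA came from C57Bl/6 mice that were wild type (AIM+/+) or lacked the AIM gene (AIM-/-). AIM, the apoptosis inhibitor of macrophage, is a blood protein made by tissue macrophages and encoded by Cd5l. Each genotype was sampled on normal chow, labelled as 0 weeks, and after 6, 12 and 20 weeks of high-fat diet, with 1 one-colour Agilent array for each genotype and week. The labels give neither the age of the mice nor the number of animals behind an array, and there was no chow array at the later weeks, so diet and age cannot be told apart.

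Cells that enter the cycle load the Mcm helicase on DNA in G1, copy the genome in S phase with the help of enzymes that make deoxynucleotides, and then build a spindle and divide. E2F factors drive many S phase genes, while many mitotic genes are held down outside the cycle and later switched on through a promoter element called the CHR, bound by the MuvB complex with B-Myb or Foxm1, and through CCAAT boxes bound by NF-Y. In the adult liver nearly all hepatocytes are quiescent. They re-enter the cycle after loss of tissue or injury, and immune, endothelial and stellate cells of the liver can divide as well.

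Promoters show how the S phase and mitotic genes differ in features that did not enter their choice. RefSeq promoters (GRCm38.p6) were found for 40 of the 49 genes, in a window from 250 bases before to 50 bases after the listed start. Both strands were searched for a CCAAT box (CCAAT), a CHR (TTTGAA or TTCGAA) and an E2F site (TTTCCCGC, TTTCGCGC, TTTGCCGC or TTTGGCGC), and these motifs may overlap each other. A CHR occurred in 16 of 23 mitotic promoters (69.6%), in 3 of 17 S phase promoters (17.6%) and in 19.4% of the 27025 promoters of the table. An E2F site occurred in 6 of 17 S phase promoters (35.3%), in 1 of 23 mitotic promoters (4.35%) and in 2.32% of all promoters. A CCAAT box was common in both sets, at 10 of 17 (58.8%) and 18 of 23 (78.3%), against 37.9% of all promoters. A CHR and a CCAAT box stood together in 15 of 23 mitotic promoters (65.2%), in 3 of 17 S phase promoters (17.6%) and in 7.7% of all promoters. The 200 bases before the start are shown for genes that hold these motifs there and had the smallest p for diet in their set, so the choice rests on the results and is an illustration. Capitals mark the motifs, and motifs that overlap run together. The S phase examples are helicase subunits with an E2F site, and Mcm7 also holds a CHR.
Mcm6 (chr1:128359706-128359905, minus strand): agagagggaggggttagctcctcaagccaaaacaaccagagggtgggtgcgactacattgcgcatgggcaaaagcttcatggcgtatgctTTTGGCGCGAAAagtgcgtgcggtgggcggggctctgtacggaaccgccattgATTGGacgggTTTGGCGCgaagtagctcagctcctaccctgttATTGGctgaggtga
Mcm5 (chr8:75109309-75109508, plus strand): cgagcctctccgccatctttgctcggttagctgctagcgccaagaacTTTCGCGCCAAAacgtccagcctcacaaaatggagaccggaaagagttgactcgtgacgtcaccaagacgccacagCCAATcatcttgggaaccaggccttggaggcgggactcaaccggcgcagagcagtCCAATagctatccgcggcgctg
Mcm7 (chr5:138171884-138172083, minus strand): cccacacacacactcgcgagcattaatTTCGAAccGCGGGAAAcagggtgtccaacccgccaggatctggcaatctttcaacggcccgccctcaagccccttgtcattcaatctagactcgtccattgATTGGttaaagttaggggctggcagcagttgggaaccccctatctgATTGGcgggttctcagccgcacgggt
The mitotic examples hold a CHR and at least 1 CCAAT box.
Mki67 (chr7:135716380-135716579, minus strand): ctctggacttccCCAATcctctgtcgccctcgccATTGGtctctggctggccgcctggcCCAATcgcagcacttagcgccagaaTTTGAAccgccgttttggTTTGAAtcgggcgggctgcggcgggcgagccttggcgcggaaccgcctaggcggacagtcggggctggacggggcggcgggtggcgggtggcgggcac
Ube2c (chr2:164769729-164769928, plus strand): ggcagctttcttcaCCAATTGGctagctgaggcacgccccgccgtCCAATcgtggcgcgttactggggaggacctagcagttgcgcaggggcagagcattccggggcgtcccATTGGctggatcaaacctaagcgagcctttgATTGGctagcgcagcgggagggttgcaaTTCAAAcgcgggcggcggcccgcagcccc
Cdc20 (chr4:118437344-118437543, minus strand): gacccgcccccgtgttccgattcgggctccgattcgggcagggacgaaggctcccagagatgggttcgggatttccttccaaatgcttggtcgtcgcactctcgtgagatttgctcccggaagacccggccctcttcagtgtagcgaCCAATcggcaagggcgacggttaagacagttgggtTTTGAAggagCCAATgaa
Bub1b (chr2:118598011-118598210, plus strand): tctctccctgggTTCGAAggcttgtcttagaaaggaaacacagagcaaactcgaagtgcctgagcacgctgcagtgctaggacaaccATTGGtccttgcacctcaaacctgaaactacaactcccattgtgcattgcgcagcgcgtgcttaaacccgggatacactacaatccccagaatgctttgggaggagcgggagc
A match of letters is a description of the sequence and shows no binding in these livers.

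The 8 arrays had 18586 to 21119 of 41174 probes well above background, and no spot was saturated. Signals are background-subtracted spot intensities, scaled so that the 75th percentile of every array is equal, and 1 gene's signal cannot be set against another's. Cd5l gave signals of 11800 to 30600 on the 4 AIM+/+ arrays and 90.9 to 173 on the 4 AIM-/- arrays, as the labels say. All AIM+/+ arrays lay on 1 slide and all AIM-/- arrays on the other, and each week took the same position on both slides, so genotype and slide, and week and position, cannot be told apart. Both 20-week arrays carried Xist signal (805 and 764, against 155 or less on the other 6 arrays) and no Y-linked signal above background, while the other 6 carried the Y-linked Ddx3y at 1034 or more. Sex and 20 weeks therefore cannot be told apart.

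On high-fat diet the livers had more RNA of mitotic genes than on chow, and the proliferation marker Mki67, the exit-from-mitosis activator Cdc20 and the ubiquitin-conjugating enzyme Ube2c were among those that rose. Over the mean of 6, 12 and 20 weeks minus chow, with genotype in the model, 13 of the 40 genes tested rose and 0 fell. Of all genes tested 1.54% rose and 0.795% fell. The 13 were 12 of 23 mitotic genes and 1 of 16 S phase genes, Mcm2. Of the 12 mitotic genes, 4 were above background on all 8 arrays. Ccna2, Ube2c, Bub1b, Nusap1 and Tpx2 were above it on no chow array, so they entered the tests through diet arrays alone. With probes above background on all 8 arrays fitted alone, 6 of 9 mitotic and 6 of 15 S phase genes rose, against 4.6% of all such genes. The median difference was 1.49 on the log2 scale over the mitotic genes, 0.70 over the S phase genes and -0.02 over all genes. The test was limma's with Benjamini-Hochberg adjustment over all genes at 0.05. Each genotype and week has 1 array, so genotypes stand in for replicates of a week and the p-values take their error from the spread among the 8 arrays, which says nothing of the spread between animals. The calls rest on all arrays together. Without both 20-week arrays or without both 12-week arrays 0 of the 40 genes passed, as did 0 of all genes. With any single array left out, calls were fewer or lost in the set and over all genes alike. The medians then ran from 1.47 to 1.70 for mitotic and from 0.58 to 0.92 for S phase genes. In whole liver, more dividing cells and more RNA per cell cannot be told apart.

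**Figure D1:**
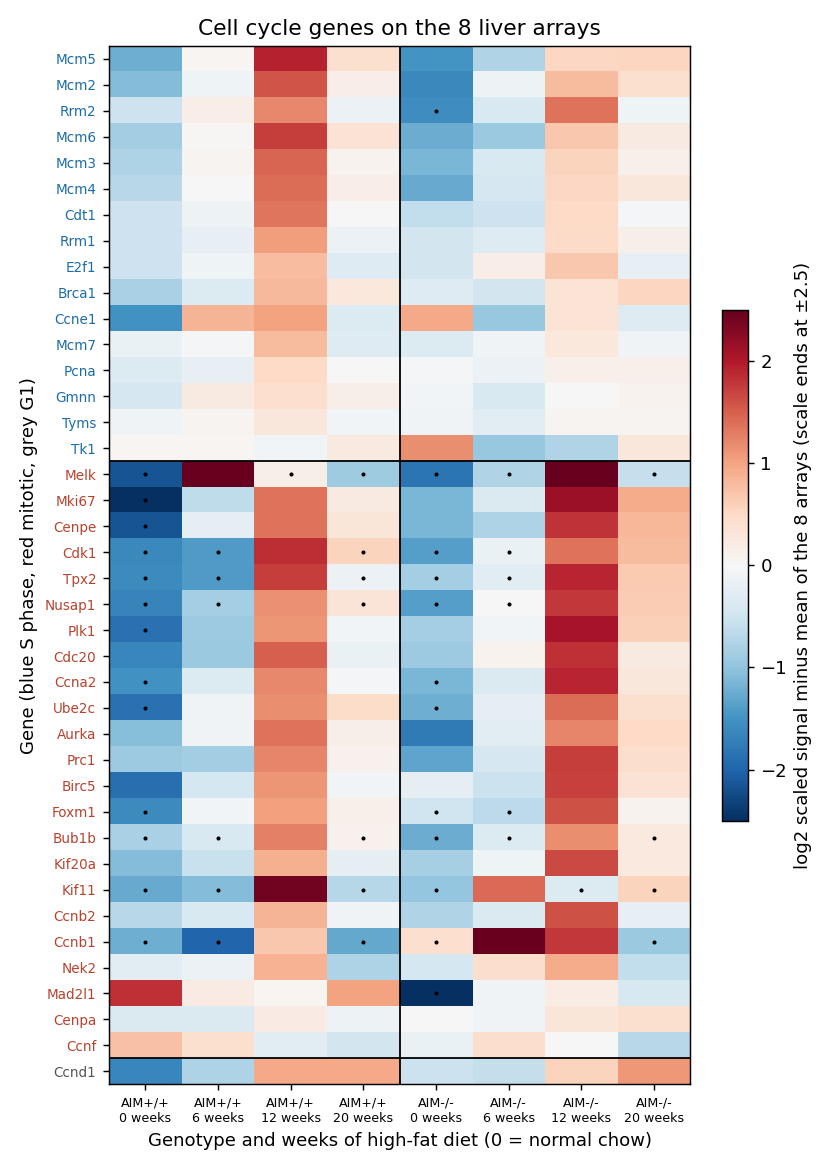
Log2 scaled signal of 40 cell cycle genes (rows, S phase in blue, mitotic in red, Ccnd1 in grey) on 8 arrays (columns, AIM+/+ left and AIM-/- right, 0 to 20 weeks), each minus the gene's mean over the arrays, with dots where a probe was not well above background. The 12-week columns are the reddest for most genes in both genotypes, and most of the dots on mitotic genes stand in the chow columns and at 6 weeks.

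Mki67, the marker of cycling cells whose protein coats mitotic chromosomes, gave signals of 26.0, 96.3, 382 and 174 on the AIM+/+ arrays at 0, 6, 12 and 20 weeks, and signals in all later lists follow that order. On the AIM-/- arrays it gave 67.9, 117, 658 and 286. Both chow arrays lay below all 6 diet arrays, and the highest signal of each genotype was at 12 weeks. Mki67 rose by 2.44 (SE 0.22, limma adjusted p = 0.0289) on the log2 scale, a fold of 5.43 that rests partly on background, since the AIM+/+ chow array was not well above it. Its probe lies at chr7:135528251-135528310 (mm8, the build of the array files, as are all probe positions here). Another Mki67 probe, well above background on 4 arrays, was also highest at 12 weeks, with 83.3 in AIM+/+ and 101 in AIM-/-.

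Among the cyclins and kinases that drive entry into mitosis, Ccna2, the cyclin of S phase and G2 (chr3:36756605-36756664), gave 29.6, 66.7, 195 and 83.5 in AIM+/+ and 38.3, 66.4, 319 and 103 in AIM-/-. Ccna2 rose by 1.78 on the log2 scale (SE 0.16, limma adjusted p = 0.0289). All diet arrays were well above background and neither chow array was, so its fold of 3.43 is set against dim chow signals. Plk1, the kinase that matures centrosomes and helps to trigger mitosis (chr7:121960854-121960913), gave 22.1, 43.1, 173 and 77.7 in AIM+/+ and 44.9, 77.6, 339 and 123 in AIM-/-. Each genotype's own chow array was its lowest, but the AIM-/- chow array lay above the AIM+/+ array at 6 weeks. Plk1 rose by 1.82 (SE 0.12, limma adjusted p = 0.0238), with its AIM+/+ chow array not well above background. Aurka, the spindle pole kinase (chr2:172047439-172047498), was well above background on all arrays, at 97.6, 191, 520 and 224 in AIM+/+ and 59.7, 168, 473 and 288 in AIM-/-. All diet arrays lay above both chow arrays, and Aurka rose by 1.89 (SE 0.22, limma adjusted p = 0.0400). Ccnb2, a B-type cyclin, gave 131, 164, 385 and 200 in AIM+/+ and 126, 166, 643 and 185 in AIM-/-, all of them above background. Its chow and diet arrays did not overlap, and its difference of 0.96 did not pass (SE 0.20, limma adjusted p = 0.0763). Cdk1, the kinase that partners the B cyclins, was well above background on 3 arrays, and its difference of 1.99 did not pass either (limma adjusted p = 0.0574).

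Cdc20 and Ube2c work with the anaphase-promoting complex, which ends mitosis by marking cyclins and securin for destruction. Cdc20 (chr4:117930863-117930922) gave 72.6, 118, 636 and 200 in AIM+/+ and 120, 238, 801 and 261 in AIM-/-, all above background. Within each genotype the 12-week array stood far above the others, and the AIM-/- chow array overlapped the AIM+/+ array at 6 weeks. Cdc20 rose by 1.69 (SE 0.17, limma adjusted p = 0.0346). Ube2c (chr2:164463721-164463780) gave 17.2, 59.0, 139 and 85.3 in AIM+/+ and 26.9, 52.3, 163 and 82.4 in AIM-/-. Chow and diet arrays did not overlap, the chow arrays were not well above background, and Ube2c was at least 2.91-fold higher on diet (log2 difference 2.05, SE 0.19, limma adjusted p = 0.0289). Bub1b, the checkpoint kinase that restrains this complex until chromosomes are attached (chr2:118332535-118332594), was dim. It gave 10.5, 14.1, 43.8 and 19.6 in AIM+/+ and 7.72, 14.5, 41.2 and 21.6 in AIM-/-, well above background at 12 weeks and on no other array. It passed for diet (log2 difference 1.36, SE 0.15, limma adjusted p = 0.0389), on values that are mostly background. Bub1b entered the tests only through its 12-week arrays, so its call and its highest week follow from the filter. The counts over the 25 genes above background on all arrays hold no such gene.

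Among the genes of the spindle and of chromosome movement, Kif20a, a kinesin of the central spindle, gave 57.7, 83.2, 226 and 105 in AIM+/+ and 68.9, 113, 384 and 145 in AIM-/-. It was above background on all arrays, its diet arrays lay above both chow arrays, and it rose by 1.27 (SE 0.14, limma adjusted p = 0.0367). Prc1, which bundles microtubules between the separating chromosomes (chr7:80189665-80189717), gave 51.6, 53.2, 228 and 105 in AIM+/+ and 39.0, 73.0, 322 and 132 in AIM-/-, and rose by 1.49 (SE 0.21, limma adjusted p = 0.0481). The AIM+/+ array at 6 weeks was within a few units of its chow array, and the later arrays were well apart. Cenpe, the kinetochore kinesin (chr3:135210810-135210869), gave 20.1, 75.7, 229 and 111 in AIM+/+ and 40.6, 52.4, 315 and 159 in AIM-/-. It rose by 2.20 (SE 0.30, limma adjusted p = 0.0468), with no overlap of diet and chow and with the AIM+/+ chow array not well above background. Nusap1, a microtubule binding protein (chr2:119340777-119340836), gave 5.81, 10.3, 40.9 and 23.2 in AIM+/+ and 7.14, 18.5, 62.6 and 28.5 in AIM-/-. Tpx2, the activator of Aurka (chr2:152585181-152585240), gave 5.96, 6.72, 59.3 and 16.1 in AIM+/+ and 9.89, 14.9, 67.4 and 28.2 in AIM-/-. Both were well above background at 12 weeks in both genotypes and at 20 weeks in AIM-/-, and on no chow array. They entered the tests through these diet arrays alone, so their calls and highest weeks are not free of the filter. Nusap1 passed with a log2 difference of 2.02 (SE 0.15, limma adjusted p = 0.0245) and Tpx2 with 1.63 (SE 0.20, limma adjusted p = 0.0427), both on values that are background in chow.

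The remaining 11 mitotic genes tested did not pass for diet. Birc5, the survivin subunit of the chromosomal passenger complex (chr11:117671735-117671794), gave 93.9, 255, 741 and 332 in AIM+/+ and 291, 239, 1129 and 444 in AIM-/-. Its AIM-/- chow array was the odd value, above both 6-week arrays, and the difference of 1.42 had an adjusted p of 0.0910 (SE 0.34, limma). Ccnf, an F-box protein that degrades other cycle proteins (chr17:23951452-23951511), had the lowest difference of the mitotic genes, at -0.37 (SE 0.25, limma adjusted p = 0.392). It gave 362, 291, 181 and 160 in AIM+/+ and 195, 299, 221 and 136 in AIM-/-, with no common order of weeks. Cenpa, the histone of centromeres, had a difference of 0.23, Nek2, a centrosome kinase, of 0.48, and Foxm1, the factor that switches on many mitotic genes, of 1.40. Melk, Kif11 and Ccnb1 were each above background on at most 3 arrays, and their weeks were not identical in both genotypes.

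Among the S phase genes, the largest differences were those of subunits of the Mcm helicase, which unwinds DNA at the fork, and of Rrm2. Mcm2 (chr6:88849266-88849325) gave 75.2, 148, 478 and 179 in AIM+/+ and 52.8, 147, 278 and 212 in AIM-/-. All diet arrays lay above both chow arrays, and Mcm2 rose by 1.80 (SE 0.23, limma adjusted p = 0.0444), a fold of 3.47. Mcm3, Mcm4, Mcm5 and Mcm6 had diet differences of 1.28, 1.30, 1.80 and 1.41 and did not pass, with limma adjusted p of 0.0508, 0.0539, 0.0596 and 0.0516. Mcm6 (chr1:130159147-130159206) gave 1052, 1964, 6322 and 2470 in AIM+/+ and 806, 1014, 3062 and 2250 in AIM-/-. The AIM-/- array at 6 weeks overlapped the AIM+/+ chow array, and no other diet array did. Mcm5 (chr8:78023523-78023583) gave 146, 354, 1284 and 451 in AIM+/+ and 121, 203, 490 and 496 in AIM-/-, so its 12-week signal was 2.62 times as high in AIM+/+ as in AIM-/-. Mcm7, the remaining subunit, gave 1402, 1529, 2690 and 1260 in AIM+/+ and 1228, 1463, 1884 and 1464 in AIM-/-, a difference of 0.34 with overlapping chow and diet arrays (limma adjusted p = 0.272).

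Genes that license or escort replication and those that make deoxynucleotides were not alike. Cdt1, which loads the helicase, gave 474, 626, 1715 and 672 in AIM+/+ and 441, 475, 954 and 667 in AIM-/-, a diet difference of 0.76 (SE 0.19, limma adjusted p = 0.101). Its inhibitor Gmnn (chr13:24759448-24759507) gave 3126, 4914, 5663 and 4630 in AIM+/+ and 4014, 3213, 4202 and 4482 in AIM-/-, with overlapping chow and diet arrays (difference 0.33, limma adjusted p = 0.383). Pcna, the sliding clamp of the polymerases (chr2:131941125-131941262), gave 1770, 1967, 3186 and 2227 in AIM+/+ and 2180, 2050, 2466 and 2467 in AIM-/-, also with overlap (difference 0.27, limma adjusted p = 0.351). The ribonucleotide reductase subunits Rrm1 and Rrm2 had differences of 0.64 and 1.39 and did not pass (limma adjusted p = 0.127 and 0.0663). Thymidylate synthase, Tyms, had a difference of 0.11 and lay between 805 and 1170 on all arrays. Thymidine kinase, Tk1 (chr11:117631881-117631940), was the lowest of the S phase genes, at -0.80 (SE 0.43, limma adjusted p = 0.304). It gave 2115, 2128, 1946 and 2391 in AIM+/+ and 4588, 1060, 1224 and 2498 in AIM-/-, with the AIM-/- chow array the highest of all and the AIM+/+ arrays level.

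**Figure D2:**
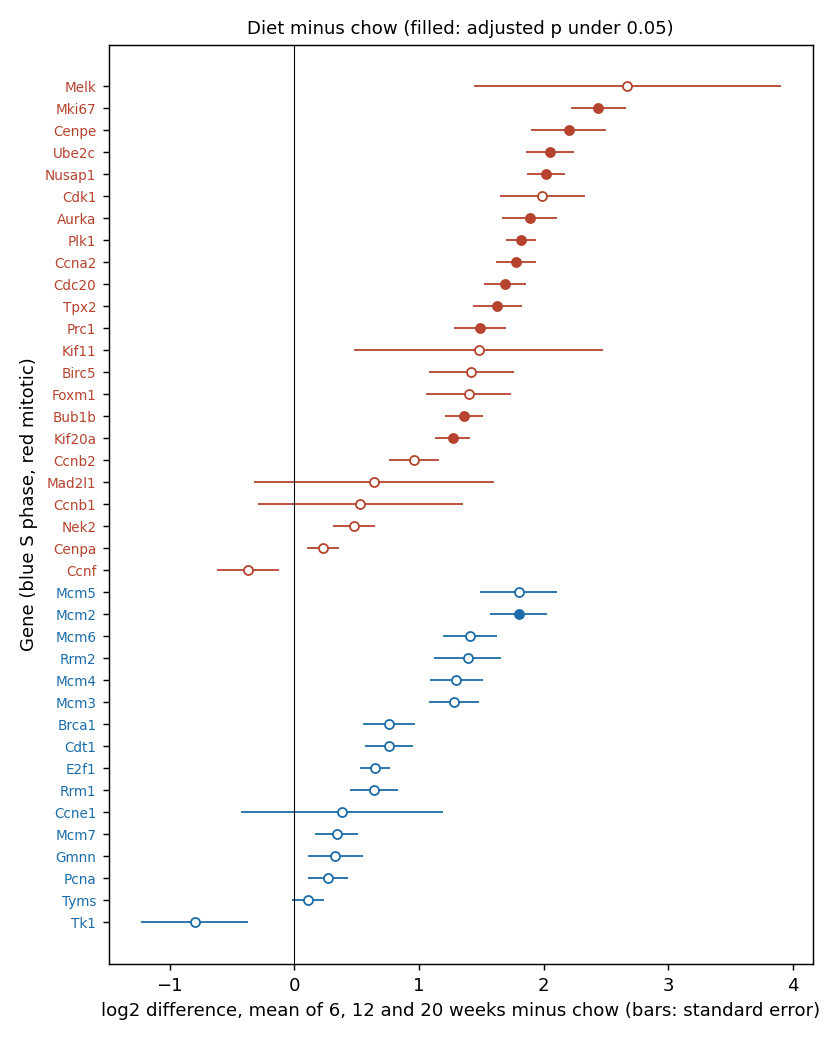
Log2 difference (x axis) of 39 S phase (blue) and mitotic (red) genes between the mean of 6, 12 and 20 weeks of high-fat diet and chow, with standard errors as bars and filled points for adjusted p under 0.05. Filled points are 12 mitotic genes and Mcm2, and the Mcm genes reach as far right as many mitotic genes while Tyms, Pcna and Gmnn lie near 0.

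The larger median of the mitotic genes depended on how dim probes were treated. On chow, 10 of the 23 mitotic genes were dim on both arrays and 4 on 1 of them, against 0 and 1 of the 16 S phase genes. With genes dim on both chow arrays set at the lower bound that their background allows, or at 0 where it allows none, the mitotic median for diet was 0.73 and the S phase median 0.70. Over genes above background on all 8 arrays the mitotic median was 1.27 (9 genes) and the S phase median 0.65 (15 genes), with -0.04 over all such genes. Of these, 4 of 9 mitotic and 1 of 15 S phase genes passed for diet, against 1.11% of all such genes. Where probes above background on all 8 arrays were fitted alone, 13 of 25 genes rose and 0 fell, against 4.6% and 2.68% of all such genes. They were 6 of 9 mitotic genes, 6 of 15 S phase genes and Ccnd1. The S phase genes were Mcm2, Mcm3, Mcm4, Mcm5, Mcm6 and E2f1, so the count of 12 mitotic genes to 1 S phase gene in the wider fit was not seen here. The difference between both sets was not tested.

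At 12 weeks most genes of both sets were higher than on chow. The contrast of 12 weeks with chow was added after its values had been seen. It shares its chow and 12-week arrays with the contrast above, so both results are not separate. In it 26 of the 40 genes rose and 0 fell, against 4.08% and 2.01% of all genes. They were 17 of 23 mitotic genes and 9 of 16 S phase genes. Of the 25 genes above background on all arrays 15 rose, 7 of 9 mitotic and 8 of 15 S phase genes, against 3.34% of all such genes. The S phase genes were Mcm2, Mcm3, Mcm4, Mcm5, Mcm6, Cdt1, Rrm1, Rrm2 and the transcription factor E2f1. Log2 differences among them ran from 1.21 for E2f1 (SE 0.15, limma adjusted p = 0.0346) to 2.57 for Mcm5 (SE 0.38, limma adjusted p = 0.0389). Of the mitotic genes, Mki67 rose by 3.58 (SE 0.28, limma adjusted p = 0.0197), Plk1 by 2.94 (SE 0.15, limma adjusted p = 0.0167) and Cdc20 by 2.94 (SE 0.21, limma adjusted p = 0.0197). Ccna2 was 7.40-fold higher at 12 weeks than its own dim chow signals, and Ube2c was at least 4.93-fold higher than on chow. Cdk1 was at least 1.97-fold and Tpx2 at least 2.07-fold higher. Medians were 2.60 for mitotic and 1.22 for S phase genes, against -0.05 for all genes, and 1.69 for mitotic genes with the dim genes at their bound. The count of 26 fell to 14 without both 20-week arrays, where 205 of all genes passed in either direction, against 935 with all arrays. With any single array left out, calls were fewer or lost in the set and over all genes alike. The medians then ran from 2.49 to 2.83 for mitotic and from 1.0 to 1.54 for S phase genes.

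The 12-week array was the highest of the 4 in both genotypes for 26 of 40 genes, against 11% of all genes: 17 of 23 mitotic and 9 of 16 S phase genes. Over the 25 genes above background on all arrays it was 15, with 7 of 9 mitotic and 8 of 15 S phase genes, against 11% of all such genes. No gene of the set was highest at 0 or at 6 weeks in both genotypes (15.1% and 6.87% of all genes), and Ccnd1 alone was highest at 20 weeks in both (9.81% of all genes). In AIM+/+ the 12-week array was the highest for 35 of 40 genes (20% of all genes), with 15 of 16 S phase and 20 of 23 mitotic genes. In AIM-/- it was the highest for 28 of 40 (26.2% of all genes), with 9 of 16 S phase and 19 of 23 mitotic genes. In AIM-/- 5 of 16 S phase genes and 1 of 23 mitotic genes were highest at 20 weeks (20.7% of all genes). The 5 were Mcm5, Gmnn, Pcna, Tyms and Brca1, of which Mcm5 (490 and 496), Pcna (2466 and 2467) and Tyms (1012 and 1015) were nearly equal at 12 and 20 weeks. A further 2 of 16 S phase genes, Tk1 and Ccne1, were highest on chow in AIM-/-. The difference in peak week between S phase and mitotic genes was not tested, and weeks between those sampled were not measured. Sex and 20 weeks cannot be told apart, so a 12-week array above the 20-week array need not reflect time on diet.

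The steps between diet weeks were in the same direction for most genes but did not pass adjustment. From 6 to 12 weeks the difference was above 0 for 39 of 40 genes, and 30 of 40 were higher at an unadjusted limma p under 0.05, against 9.92% of all genes. None passed after adjustment, nor did any of the genes tested (0% of all), and the smallest adjusted p of the set was 0.0706 for Plk1. From 12 to 20 weeks the difference was below 0 for 37 of 40, and 25 of 40 were lower at an unadjusted limma p under 0.05, against 5.81% of all genes. This step goes from arrays with Y-linked signal to arrays with Xist signal, so week and sex cannot be told apart in it. After adjustment 0 of the 40 passed, against 0.0456% of all genes lower and 0.0717% higher, and the smallest adjusted p of the set was 0.117, again for Plk1. The median of mitotic genes was 1.60 from 6 to 12 weeks and -1.20 from 12 to 20 weeks, and that of S phase genes 1.0 and -0.76. At 20 weeks the medians were still above chow: over genes above background on all arrays, the median against the chow array of the same genotype was 0.86 for mitotic and 0.57 for S phase genes in AIM+/+, and 0.61 and 0.59 in AIM-/-. All 6 diet arrays lay above both chow arrays for 19 of 40 genes, against 10.5% of all genes.

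**Figure D3:**
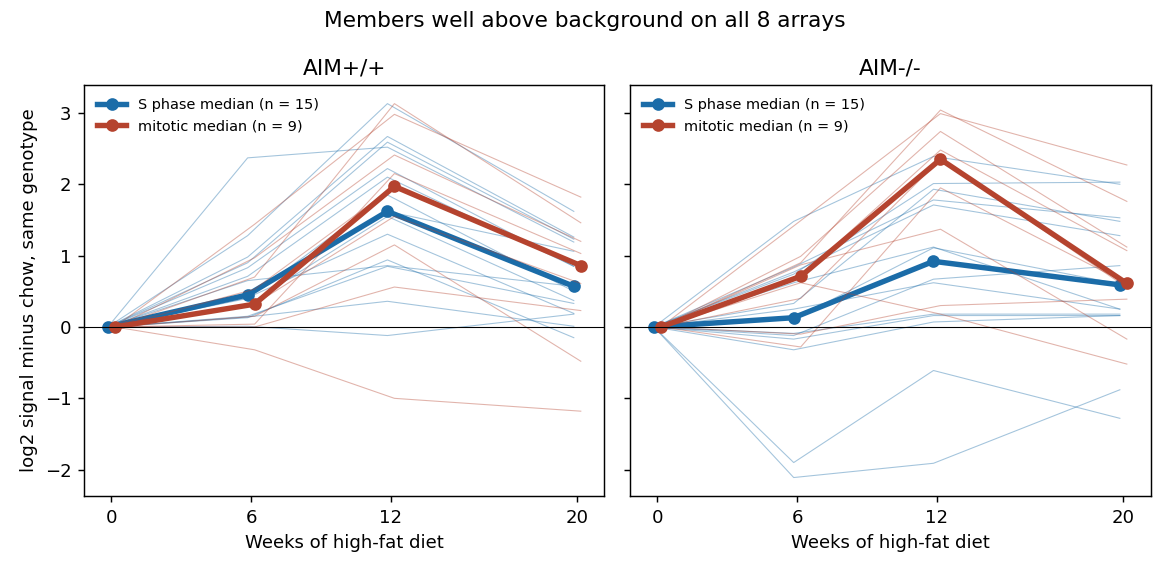
Log2 signal minus the chow array of the same genotype (y axis) by weeks of diet (x axis) for 15 S phase genes (blue) and 9 mitotic genes (red) above background on all 8 arrays, AIM+/+ left and AIM-/- right, thin lines for genes and thick lines for medians. Both medians are highest at 12 weeks, at 1.62 and 1.97 in AIM+/+ and 0.92 and 2.35 in AIM-/- for S phase and mitotic genes, and the pair of S phase lines that stay below 0 at every diet week in AIM-/- are Tk1 and Ccne1.

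Ccnd1, the cyclin that carries growth signals into G1 (chr7:144739658-144739717), was highest at 20 weeks in both genotypes. It gave 480, 867, 2841 and 2848 in AIM+/+ and 1024, 979, 2192 and 3143 in AIM-/-. Its signals at 12 and 20 weeks lay above all earlier ones, with no decline at 20 weeks. The diet difference of 1.44 (SE 0.29) had a limma adjusted p of 0.0715 and the 12-week difference of 1.83 one of 0.0528, so neither passed. From 12 to 20 weeks, a step in which week and sex cannot be told apart, Ccnd1 differed by 0.26, against a median of -0.97 over all 40 genes.

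Between genotypes, 0 of the 40 genes passed, against 0.013% of all genes higher and 0.0196% lower in AIM-/-. At an unadjusted limma p under 0.05, 8 of 40 were higher in AIM-/-, all of them mitotic (1.81% of all genes), and Mcm6 was lower (3.77% of all genes). Over genes above background on all arrays, 3 of 9 mitotic genes were higher, against 1.24% of all such genes. The 8 also held Nusap1, Tpx2 and Ccnb1, each above background on 3 arrays. The smallest adjusted p was 0.262, for Plk1, with a difference of 0.88. For the interaction of genotype with diet 0 of 40 passed, as did 0 of all genes (0%), and at an unadjusted limma p under 0.05 Mad2l1 was higher (2.67% of all genes) and Ccne1 lower (1.75%).

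Week by week, with 1 array against 1 and no test, S phase and mitotic genes differed in sign at 12 weeks. S phase genes were lower in AIM-/- for 15 of 16, with Rrm2 the exception (277 against 247), and mitotic genes were higher in AIM-/- for 19 of 23. Of all genes, 50.5% were lower and 49.5% higher. The median difference, AIM-/- minus AIM+/+, was -0.61 for S phase and 0.46 for mitotic genes, and over genes above background on all arrays -0.66 and 0.33. At 6 weeks the medians were -0.42 and 0.27, at 20 weeks 0.13 and 0.32, and on chow -0.06 and 0.33. The mitotic median on chow depended on dim probes. Over genes above background on all arrays it was -0.06, with 4 of 9 genes higher in AIM-/-. It was 0.05 over the mitotic genes tested with normexp background correction. At 12 weeks the signs were the same with normexp background correction, quantile normalization, the mean of the probes or another percentile, while at 6 weeks the mitotic median was -0.05 with normexp. At least 2-fold differences at 12 weeks were few: Mcm5 (2.62 times) and Mcm6 (2.06 times) were lower in AIM-/-, as was the dim Kif11, and Ccnb1 and Melk, both dim in places, were higher. That is 3 of 40 lower and 2 of 40 higher, against 2.02% and 2.54% of all genes.

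**Figure D4:**
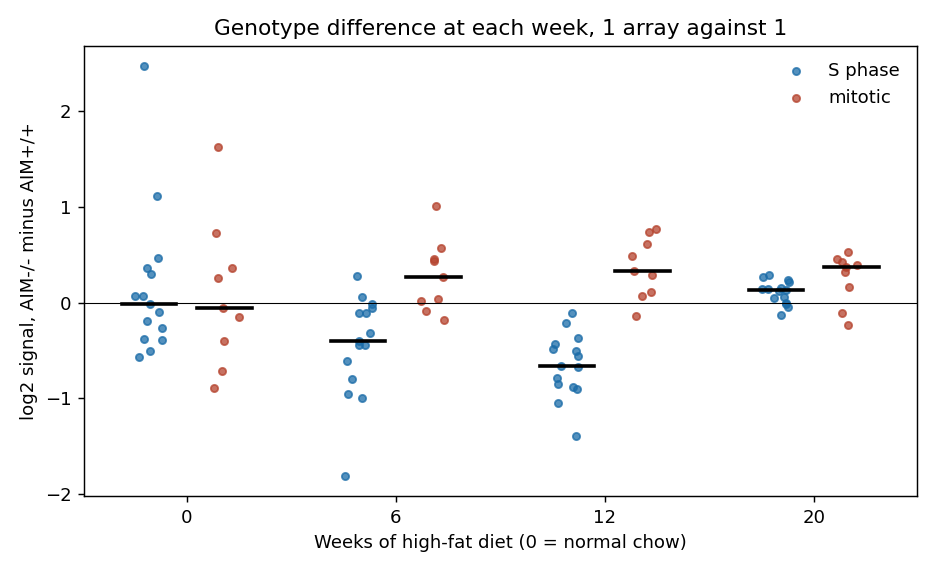
Log2 signal of the AIM-/- array minus the AIM+/+ array (y axis) at each week (x axis) for genes above background on all 8 arrays, 15 S phase genes in blue and 9 mitotic genes in red, with the median as a bar. At 12 weeks all 15 S phase genes lie below 0 and 8 of 9 mitotic genes above it, with medians of -0.66 and 0.33, and at 20 weeks both medians are above 0.

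Other genes of replication and mitosis, listed from general knowledge, give a wider view of both phases. Of 28 other replication genes 26 were tested. At 12 weeks against chow those that rose included the methylation maintenance factor Uhrf1 (dim on chow and at least 11.8-fold higher, limma adjusted p = 0.0372), DNA ligase Lig1 (1.35, limma adjusted p = 0.0372), the helicase cofactor Gins2 (1.93, limma adjusted p = 0.0372) and the chromatin assembly subunit Chaf1a (2.05, limma adjusted p = 0.0458). Of 40 other mitotic genes 22 were tested, 8 rose on diet (1.54% of all genes) and 16 rose at 12 weeks (4.08% of all genes). The 8 were Cdca3, Cdca5, Cdca8, the condensin subunits Smc2 and Ncapg2, and the kinetochore genes Nuf2, Spc25 and Cenpf. Of these, Cdca3, Cdca5, Cdca8 and Spc25 were above background on all arrays and rose by 1.45, 1.75, 1.41 and 1.58. Ncapg2, Nuf2 and Cenpf were dim on both chow arrays and entered the tests through diet arrays alone, Cenpf only through its 12-week arrays. Of 13 other mitotic genes above background on all arrays, 4 rose on diet (1.11% of all such genes) and 10 at 12 weeks (3.34%). The medians for diet were 0.30 for other replication and 1.23 for other mitotic genes, and 0.67 and 2.03 for 12 weeks against chow. In AIM-/- against AIM+/+ at 12 weeks, 25 of 26 other replication genes were lower (median -0.58), whereas 8 of 22 other mitotic genes were higher and 14 lower (median -0.05). The lower S phase signals in AIM-/- at 12 weeks were seen in both replication lists, and the higher mitotic signals were not seen in the other mitotic list. All these counts come from the same pair of 12-week arrays, 1 for each genotype and slide, so 1 list does not replicate the other.

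The genes that hold the cycle back were listed with the pocket proteins, 14 of 16 of them tested. Cdkn3, a phosphatase of cyclin-dependent kinases, was dim on chow and at least 3.72-fold higher on diet (limma adjusted p = 0.0268), with signals of 20.7, 56.8, 233 and 82.0 in AIM+/+ and 28.1, 68.0, 386 and 75 in AIM-/-, and Rbl1, the pocket protein p107, rose by 1.05 (limma adjusted p = 0.0431). Both were highest at 12 weeks in both genotypes. Cdkn1a, the p53 target p21, gave 110, 45.1, 560 and 491 in AIM+/+ and 26.8, 439, 1196 and 270 in AIM-/-, a difference of 2.68 that did not pass (limma adjusted p = 0.198). Of 22 other G1 cyclins, kinases and E2F or MuvB factors 19 were tested and 0 passed for diet, with a median of 0.02 (1.54% of all genes rose and 0.795% fell, so a count of 0 in a list this short is near the background). Of 18 liver growth factors and receptors 13 were tested and 0 passed for diet, likewise near the background, with a median of 0.19.

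RNA of other cell types moved over the same weeks. Of 10 markers of recruited macrophages and monocytes 7 were tested, Itgam and Cx3cr1 were above background on no array, and their summed signal was 17800 to 21400 on chow and at 6 weeks and 28800 to 58400 at 12 and 20 weeks. Of these, 5 of 7 rose at 12 weeks against chow (4.08% of all genes). T and NK cell markers (9 of 14 tested, Cd3g, Cd4 and Ncr1 on no array) summed to 923 and 1500 on chow and to 1860 and 4820 at 12 weeks. Cholangiocyte and progenitor markers (6 of 8 tested, Cftr on no array) summed to 721 and 935 on chow and 9880 and 27800 at 12 weeks, and most of that sum is Spp1, which the macrophage list holds too. Stellate cell markers (11 of 11) summed to 19000 to 22500 on chow and at 6 weeks and 28400 to 36100 later, and Kupffer cell markers (11 of 11) lay between 21800 and 33200 on all arrays. Hepatocyte markers were above background on every array, with sums of 1030000 and 997000 on chow and 778000 and 746000 at 12 weeks. From 12 to 20 weeks the macrophage sum went from 37700 to 41200 in AIM+/+ and from 58400 to 28800 in AIM-/-, and all 7 markers tested had a fitted difference below 0 (median -0.75). The part of these cell types in the cell cycle results was not tested.

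Of the 49 genes, 9 did not pass the filter and have no test. The S phase genes Cdc6, Cdc45 and Chek1 and the mitotic topoisomerase Top2a were above background on 1 array each, and Ccne2, Aurkb, Bub1, Ttk and Kif2c on none. Probes of 1 gene did not always behave alike. The Mad2l1 probe used in the tests, of a spindle checkpoint gene, gave 173, 56.0, 50.5 and 97.8 in AIM+/+ and 7.05, 45.9, 55.2 and 36.9 in AIM-/-. The other Mad2l1 probe gave 24.4, 35.2, 72.6 and 40.9 in AIM+/+ and 11.8, 42.4, 58.3 and 40.7 in AIM-/-, highest at 12 weeks in both. The second Cdk1 probe was above background on no array.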

How the data were processed

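Liver RNA of each genotype and week was hybridised to 1 Agilent mouse array in 1 colour, 8 in all. Spot intensity was deposited as processed by Feature Extraction, which subtracts background (version 9.5.3.1 per the file headers and 9.5 in the submitters' notes). The deposited value table holds log2 signal minus each array's 75th percentile, as a comparison with the scanner files showed (column medians -3.60 to -3.42), and served as an alternative. The mean and background intensity in the deposited files served the normexp alternative (offset 50).

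Controls (1639 spots) and outlier spots (75 to 130 on an array) were removed, replicate spots averaged, and log2 values scaled by the 75th percentile. A probe needed to be well above background on at least 2 arrays, and where a gene had several, the brightest on average was used. Symbols were updated through RefSeq (24375 of 41174 probes matched). Scaled signals have the arrays' mean percentile added back. limma 3.58.1 (R 4.3.3, with version 1.17.8 of data.table) fitted week and genotype with 3 residual degrees of freedom, and a model of genotype by chow or diet with 4 for the interaction. Adjusted p under 0.05 was the threshold, with the procedure tested on simulated data. For a gene dim on every chow array, "at least" gives the diet mean over the higher of the lowest signal well above background and the probe's own signal. For 1 array against 1, differences of 2-fold or more were counted.

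Members and lists were chosen with earlier results of these data known, and the test of 12 weeks minus chow was added after its values had been seen. Signals on all arrays are given for genes that passed for diet, the 3 brightest and the lowest per set, and Ccnd1. Further genes with signals were chosen after their values were seen. Precision is limited by the number of arrays. Exon and UTR positions of probes were not analysed here. Some results on other genes are not reported here.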

Additional observations from a re-analysis of the deposited data

Results flagged for a closer look

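In Ccne1, the cyclin of S phase entry, every diet array of AIM+/+ lay above its chow array and every diet array of AIM-/- below it. Its signals at 0, 6, 12 and 20 weeks were 169, 876, 969 and 385 in AIM+/+ and 934, 251, 613 and 386 in AIM-/-. The interaction was -3.29 on the log2 scale (SE 0.95) and did not pass (limma adjusted p = 0.912). Another Ccne1 probe, above background on 6 arrays, had the same opposite directions on chow against 6 weeks, at 14.3 and 49.9 in AIM+/+ and 52.4 and 18.3 in AIM-/-. The values of 14.3 and 18.3 were not well above background, so each direction rests on a dim value at 1 end.

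Mad2l1 went the opposite way, with every diet array of AIM+/+ below and of AIM-/- above its chow array, an interaction of 4.09 (SE 0.60) that did not pass (limma adjusted p = 0.416). Its AIM-/- chow array was not well above background, and its other probe did not show the pattern.

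Probes outside the tests were above background on a single diet array and on no chow array: Cdc45 with a signal of 23.4 on the AIM-/- array at 20 weeks, Cdc6 with 41.8 and Chek1 with 49.4 on the AIM+/+ array at 12 weeks, and Top2a with 26.4 on the AIM-/- array at 20 weeks. Some arrays not marked as above background held signals as high, such as Cdc45 with 32.4 on the AIM+/+ array at 12 weeks and Cdc6 with 27.5 on the AIM-/- chow array.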

How the results depend on the processing

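No diet or week result on the set changed direction under the alternatives run. Quantile normalization, the mean of the probes, the deposited value table, no genotype term and a percentile over probes detected on all arrays (chosen after seeing the data) left every count within 1.5 times and every median within the spread between arrays. With normexp the mitotic medians were 0.68 for diet and 1.21 for 12 weeks minus chow. With probes above background on all 8 arrays fitted alone, 13 of 25 genes rose on diet (4.6% of all such genes). They were 6 S phase and 6 mitotic genes and Ccnd1, against 1, 12 and 0 in the main fit. In the same fit 17 of 25 genes rose at 12 weeks (7.06% of all such genes). The mitotic 12-week median was 2.22, and 15 genes were highest at 12 weeks in both genotypes. With no filter 1 of 49 genes rose on diet and 10 at 12 weeks, where 27 and 75 of all genes passed in either direction. The mitotic 12-week median was then 2.29. Without both 20-week arrays 0 rose on diet and 14 at 12 weeks, where 0 and 205 of all genes passed in either direction. Without both 12-week arrays (chosen after seeing the data) 0 rose on diet and 0 of all genes passed, with medians of 0.38 for S phase and 0.93 for mitotic genes. Leaving out 1 array in turn left 1 array for its week, and calls for diet and for 12 weeks minus chow were fewer or lost in the set and over all genes alike. The medians for diet were 0.58 to 0.92 (S phase) and 1.47 to 1.70 (mitotic), and those for 12 weeks minus chow 1.0 to 1.54 and 2.49 to 2.83. The contrasts of 12 with 6 weeks, 20 with 12 weeks, genotype and interaction had 0 genes in every alternative that could be fitted. The interaction could not be fitted without either chow array, and slide could not be fitted as a block because each slide holds 1 genotype. No paired analysis was possible because each genotype and week has 1 array and all carry the same replicate number, though the fit of week and genotype compares genotypes within weeks. Many mitotic genes were near background on chow, which limits the size of their differences.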
